A study of Homo sapiens with 4 samples.

Results

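The genes described here encode the protein subunits of the mitochondrial ribosome. They were taken as every protein-coding gene whose symbol begins MRPL or MRPS followed by a number, which gave 77 of 20056 protein-coding genes: 49 MRPL genes, named for the large subunit, and 28 MRPS genes, named for the small subunit. Their gene IDs carried 220 of the 63507 distinct PABPC4 peak positions and 15 of the 9107 HNRNPC positions. The study mapped RNA bound by PABPC4 and HNRNPC in MDA-MB-231, an established human triple-negative breast cancer line, and asked where each protein sits on mRNA. The labels name no genotype change or drug, and the cells of all 4 samples were cross-linked with 400 mJ per square centimetre of ultraviolet light at 254 nm, with 2 samples for each protein. PABPC4, a cytoplasmic poly(A)-binding protein, was profiled by PAPERCLIP, a form of cross-linking and immunoprecipitation (CLIP) that recovers RNA next to the poly(A) tail. HNRNPC, a mostly nuclear protein that binds runs of U, was profiled by irCLIP as the labels give it, although the name of the deposited list says HITS-CLIP. Each protein's samples went into 1 shared peak list. Replicate spread could therefore not be given for any value, nothing was tested across samples, and the intervals cover counting error only. No control immunoprecipitation was analysed here, and the data are of 1 cell line.

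The mitochondrial ribosome translates the few proteins that the mitochondrial genome encodes, all of them parts of the respiratory chain machinery. Its ribosomal RNA is made inside the organelle, whereas every one of its proteins is encoded in the nucleus, translated on cytosolic ribosomes and imported. The mRNAs described here are therefore ordinary nuclear transcripts, which end with a poly(A) tail added downstream of a poly(A) signal, most often AATAAA or ATTAAA in DNA letters. Many of the proteins have bacterial counterparts, and others occur only in mitochondrial ribosomes. MRPS18A and MRPS30, in spite of their names, are built into the large subunit, but were counted here by symbol.

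To show what a PABPC4 peak looks like on these transcripts, the last 30 bases of the tallest 3′ UTR peak are given for 6 of the 10 genes with the highest peaks. The sequences were read 5′ to 3′ from hg38 on the gene's strand, and capitals mark the poly(A) signal.
MRPS34 (chr16:1771892-1771921, minus strand): tgaaagggAATAAAgagaaaagaagtaccc
MRPL9 (chr1:151759648-151759677, minus strand): agcagaAATAAAgagaatatgttcttttta
MRPL52 (chr14:22834316-22834345, plus strand): cAATAAAaagcaactcctgcctcccttcct
MRPL14 (chr6:44113684-44113713, minus strand): agAATAAAtgtattcatttatgtgtttttc
MRPS24 (chr7:43866557-43866586, minus strand): ctgctattgAATAAAgaccttctatcttgt
MRPL50 (chr9:101389967-101389996, minus strand): ttttagaATTAAAgtagatttgttaaagtg
The signal began 20 to 28 nt before the last base of the peak in MRPS34, MRPL9, MRPL52, MRPS24 and MRPL50 and 30 nt before it in MRPL14, whose line is moved upstream so as to hold the whole signal. Some peaks, that of MRPL14 among them, were followed in the genome by an A-rich stretch, taken as an unbroken run of 6 A, or 10 nt of which 7 are A, in the 50 nt that follow the peak.

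Nearly all of the genes had PABPC4 peaks, and nearly all had them in the 3′ UTR. A PABPC4 peak was present in 74 of 77 genes, or 96.1% (95% Wilson interval 89.2 to 98.7%), against 59.2% of all protein-coding genes. A peak centred in an annotated 3′ UTR was present in 73 of 77, or 94.8% (87.4 to 98.0%), against 48.8%. Among genes with any PABPC4 peak, 98.6% of mitochondrial ribosomal protein genes (92.7 to 99.8%) and 82.4% of all genes had it in the 3′ UTR. Large and small subunit genes did not stand apart, with 47 of 49 and 26 of 28 genes. The presence of a peak depends on how much of a transcript the cells hold, and mRNA levels were not analysed here, so abundance and binding per molecule cannot be told apart. Of genes that mark this mesenchymal, hormone receptor-negative line, VIM had a tallest 3′ UTR peak of 10197 tags, AXL of 1041 and CD44 of 331. CDH1, an epithelial marker, had 56, and ESR1 and PGR, the hormone receptors, had no 3′ UTR peak.

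The gene without a 3′ UTR peak among the 74 was MRPS15, which encodes a small subunit protein with a bacterial counterpart. Its 3′ UTR is 70 nt long, and its peak of 186 tags (exact 95% Poisson interval 160 to 215) was centred in the coding sequence but ended exactly on the annotated 3′ end, with AATAAA 20 nt before it. By the base at the peak's 3′ end it would be a 3′ UTR peak, but that rule moves other genes out of the count and leaves 71 genes with a 3′ UTR peak instead of 73.

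MRPL23, MRPL45 and MRPS18B had no peak in either list, on either strand of the gene. MRPL23 and MRPL45 encode large subunit proteins, the latter a protein that holds the ribosome at the inner membrane, and MRPS18B encodes a small subunit protein. Their neighbours had few or none as well. Within 500 kb on either side of MRPS18B, 0 of 34 protein-coding genes had a PABPC4 peak, and around MRPL45 0 of 18. Around MRPL23 there were none among 4 genes within 100 kb, and 5 of 29 within 500 kb had a peak. Among the 7967 protein-coding genes with at least 18 genes in such a window, 290, or 3.64%, had a window with no PABPC4 peak at all. What the empty windows come from was not tested. MRPL45 also has a related pseudogene, MRPL45P2, which carried 7 PABPC4 peaks.

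The height of a peak is the number of pooled unique tags at its summit. The tallest 3′ UTR peak of each of the 73 genes ranged from 8 tags in MRPL46 to 756 in MRPS34, with a median of 129 and quartiles of 65 and 188. Over all 9780 protein-coding genes with such a peak the median was 73, with quartiles of 33.8 and 147. Of the 73 genes, 30 lay in the top quartile of all genes, 22 in the next, 15 in the next and 6 in the lowest. The subunits had nearly the same middle, with medians of 131 tags in 47 large subunit genes and 128 in 26 small subunit genes. Heights were not scaled to transcript length or level.

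MRPS34, a small subunit protein found only in mitochondrial ribosomes, had the highest peak, 756 tags (703 to 812). It was the gene's only PABPC4 peak. MRPL9, a large subunit protein with a bacterial counterpart, followed with 602 tags (555 to 652), also in a lone peak. MRPL52 had 522, MRPL14 492, MRPS24 436 and MRPL15 314 tags. MRPL1, whose protein forms the mobile stalk beside the tRNA exit site, had 285 tags (253 to 320), and MRPL11, part of the stalk base where elongation factors dock, had 278 (246 to 313). MRPS16 and MRPL50 closed the first 10 with 262 and 260 tags. The counting intervals of MRPL1, MRPL11, MRPS16 and MRPL50 overlapped, so their order is not settled, while MRPS34 stood above MRPL9 and MRPL9 above MRPS24 by more than counting error. At the other end, MRPS31 had 14 tags, MRPS11 10 and MRPL46 8 (3.45 to 15.8).

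**Figure D1:**
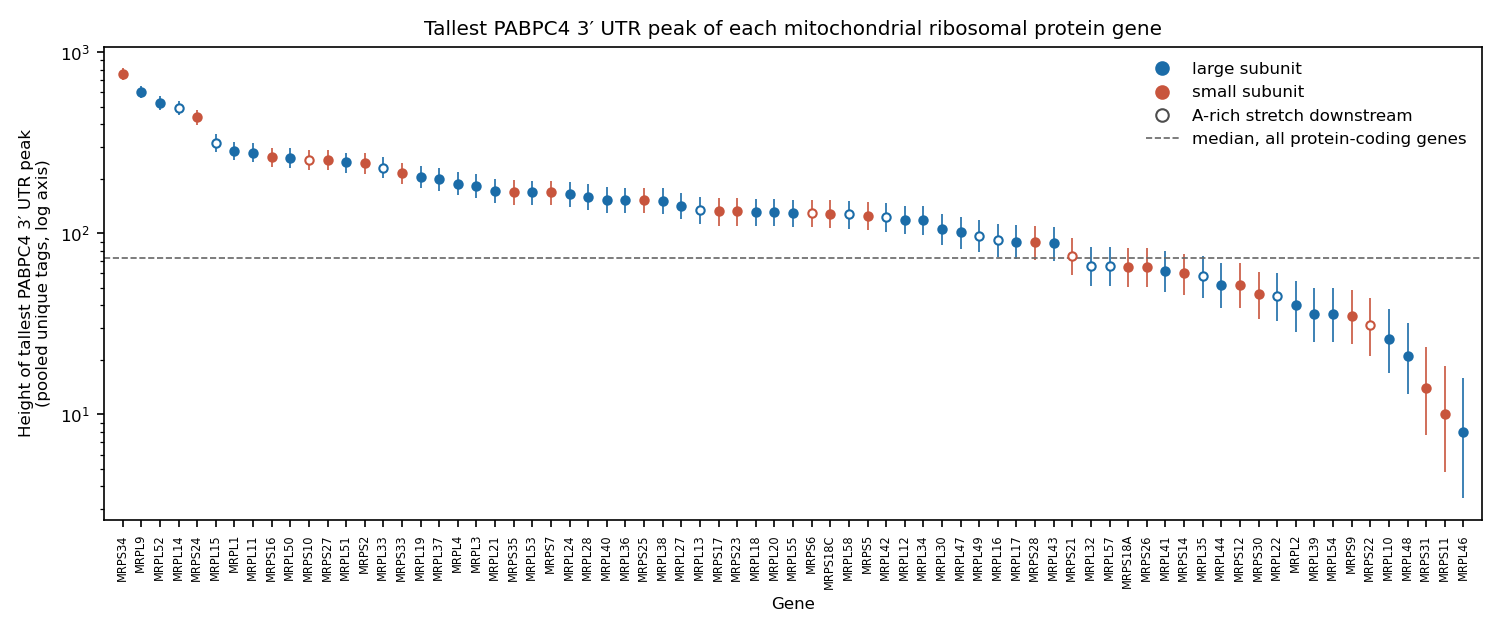
Height of the tallest PABPC4 3′ UTR peak (pooled unique tags, log axis) for the 73 genes with one, in order of height, with exact 95% Poisson intervals that cover counting error only. Colours give the subunit by symbol, open circles have an A-rich stretch downstream, and the dashed line is the median of all protein-coding genes, 73 tags; heights run from 756 in MRPS34 to 8 in MRPL46 and the subunits are intermingled. The MRPS6 peak shown lies in the 3′ UTR of SLC5A3, a gene within an MRPS6 intron.

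The next question was whether the peaks sat where the annotation ends the transcript. Of the 135 3′ UTR peaks, 78 ended within 50 nt of an annotated 3′ end of the same gene, or 57.8% (49.3 to 65.8%), close to the 54.5% of all protein-coding genes. A poly(A) signal lay in the last 40 nt of 74 peaks, or 54.8% (46.4 to 63.0%), against 47.1%, and 62 of these held AATAAA. The signal began at a median of 21 nt before the peak's last base (quartiles 24 and 18 nt). Of the peaks at an annotated end, 57 of 78 held a signal, or 73.1% (62.3 to 81.7%), and of those away from one 17 of 57, or 29.8% (19.5 to 42.7%). An A-rich stretch followed 14 of 78 peaks at an end, or 17.9% (11 to 27.9%), and 20 of 57 away from one, or 35.1% (24.0 to 48.1%). The values over all genes ran the same way, with signals in 66.0% and 24.6% and A-rich stretches after 24.4% and 41.0%. Peaks at an annotated end were also the taller, with a median of 112 tags against 45.

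With each gene's tallest peak alone, the fit to the annotation was closer. It lay within 50 nt of an annotated end in 58 of 73 genes, or 79.5% (68.8 to 87.1%), against 70.7% of all genes, and within 5 nt in 43. It held a poly(A) signal in 54 of 73, or 74.0% (62.9 to 82.7%), against 59.6%. AATAAA was the signal in 46 genes and ATTAAA in 8. For MRPS6 the peak counted here lay in the 3′ UTR of SLC5A3, a gene within an MRPS6 intron. By subunit, the tallest peak was at an annotated end in 40 of 47 large subunit genes, or 85.1% (72.3 to 92.6%), and in 18 of 26 small subunit genes, or 69.2% (50 to 83.5%), intervals that overlap.

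**Figure D2:**
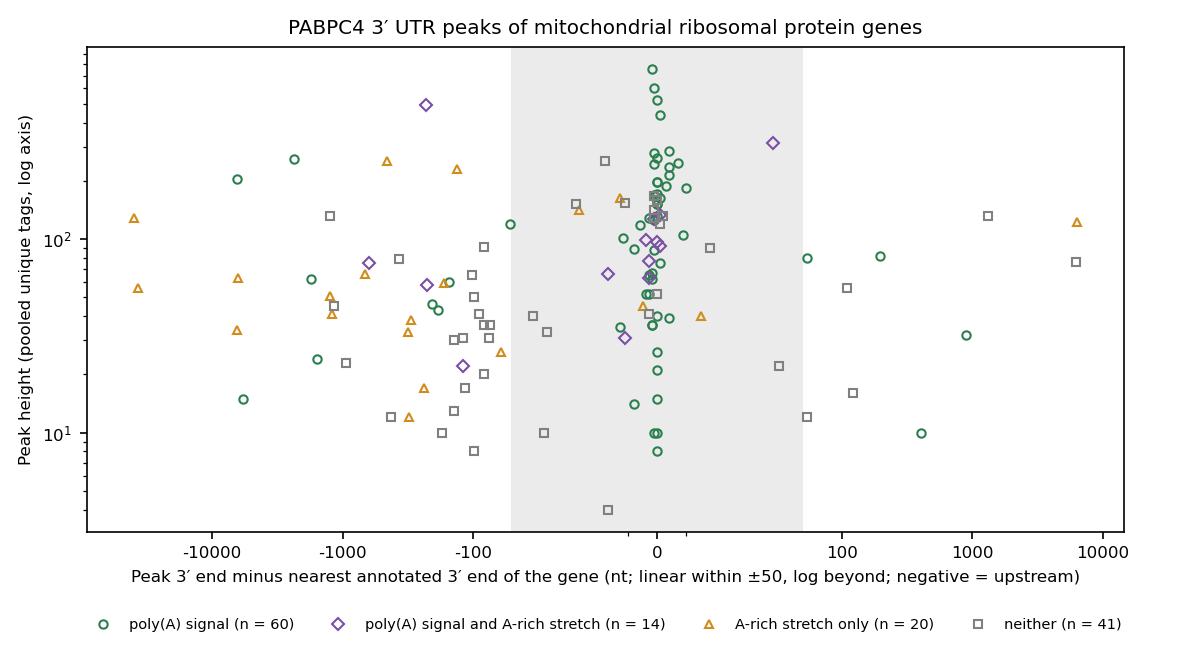
Height (pooled unique tags, log axis) of each of the 135 PABPC4 3′ UTR peaks against the distance of its 3′ end from the nearest annotated 3′ end of the gene (linear within 50 nt, shaded, and logarithmic beyond, negative upstream). Symbols give the poly(A) signal and the A-rich stretch; peaks within the shading number 78 and have a median height of 112 tags, against 45 for the 57 outside.

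In 15 genes the tallest 3′ UTR peak ended more than 50 nt from an annotated end. In 4 of these, MRPL19, MRPL50, MRPS14 and MRPS30, the peak held a poly(A) signal and no A-rich stretch followed. MRPL19, a large subunit protein with a bacterial counterpart, has a 3′ UTR of 6921 nt, and its peak of 204 tags ended 6473 nt short of the nearest annotated end. The peak had AATAAA 20 nt before its last base. MRPL50, specific to mitochondrial ribosomes, has a 3′ UTR of 2833 nt, and its lone peak of 260 tags ended 2334 nt short of the annotated end, with ATTAAA 22 nt before its last base. The sequence of that end is among those printed above. For both genes the peak thus lay near the start of a long annotated 3′ UTR.

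The other 11 genes differed from these. MRPL14, MRPS21 and MRPL35 had both a signal and an A-rich stretch at the tallest peak, which for MRPL14 (492 tags) lay 230 nt short of the annotated end. MRPS10, MRPL33, MRPS6, MRPL42 and MRPL57 had an A-rich stretch and no signal. The MRPS6 peak was the one in the 3′ UTR of SLC5A3. The tallest in the 3′ UTR of MRPS6 itself had 120 tags and AATAAA, and ended 52 nt before the annotated end. MRPS17, MRPS18A and MRPS23 had neither. In MRPS10, the tallest peak of 254 tags lay 453 nt short of the annotated end. A peak of nearly the same height, 235 tags, lay 4 nt past that end with ATTAAA, and the intervals of the 2 heights overlapped (224 to 287 and 206 to 267). In MRPL33, likewise, the peak of 230 tags with the A-rich stretch stood beside 198 tags exactly on the annotated end with AATAAA. For these genes the choice of tallest peak was therefore within counting error. MRPL15 and MRPL13, on chromosome 8, had a signal, an A-rich stretch and a distance of 40 and 1 nt from an annotated end.

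More than 1 3′ UTR peak was found in 36 of 77 genes, or 46.8% (36.0 to 57.8%), against 25.1% of all protein-coding genes. Among genes with at least 1, the shares were close, 36 of 73 or 49.3% (38.2 to 60.5%) against 51.6%. Of the 73 genes, 37 had 1 such peak, 22 had 2 and 14 had 3 or more. The count followed the length of the 3′ UTR. With a 3′ UTR under 200 nt, 4 of 15 genes with a peak had 2 or more, or 26.7% (10.9 to 52.0%), with 200 to 1000 nt 19 of 38, or 50% (34.8 to 65.2%), and with over 1000 nt 13 of 20, or 65.0% (43.3 to 81.9%). All protein-coding genes gave 24.0%, 38.5% and 62.1% in the same classes. The genes' annotated 3′ UTRs were short, with a median of 464 nt against 1048 nt. In the 36 genes, the tallest peak held a median of 67.7% of the summed 3′ UTR heights, with a range of 31.3 to 93.8%. Peaks at more than 1 place within 50 nt of an annotated end were found in 12 genes.

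MRPL42, a large subunit protein specific to mitochondria with an annotated 3′ UTR of 14993 nt, had the most, 9 peaks of 10 to 123 tags. Its tallest, 123 tags (102 to 147), held 31.3% of the summed heights. That peak lay 6322 nt past the nearest annotated end, had no signal and was followed by an A-rich stretch. Peaks of 40 and 41 tags lay 43 and 3 nt before annotated ends. MRPL30, with 5 peaks, had 105 tags 9 nt past an annotated end, 82 tags 196 nt past one and 63 tags 3 nt before another, all 3 with AATAAA. An A-rich stretch followed the peak of 63 tags. Its remaining peaks had 12 and 17 tags and no signal, and the former was followed by an A-rich stretch.

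MRPS16, a small subunit protein with a bacterial counterpart, had 4 peaks. The tallest, 262 tags (231 to 296), ended exactly on an annotated end with AATAAA 18 nt before it. Farther downstream in the gene lay 79 tags 371 nt short of another annotated end, 163 tags 13 nt short of that end with an A-rich stretch and no signal, and 77 tags 3 nt short of a further end with both AATAAA and an A-rich stretch. In MRPL17 the 3 peaks had 16, 90 and 41 tags and none held a signal, the tallest lying 18 nt past an annotated end. MRPS6 had 4 peaks in 3′ UTRs, of 129, 120, 75 and 56 tags. The peaks of 120 and 75 tags were in its own 3′ UTR, 52 nt before and 1 nt past the annotated end, each with AATAAA. The peaks of 129 and 56 tags lay in the 3′ UTR of SLC5A3, a sodium-coupled inositol transporter gene that sits within an intron of MRPS6 on the same strand, and were followed by A-rich stretches.

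**Figure D3:**
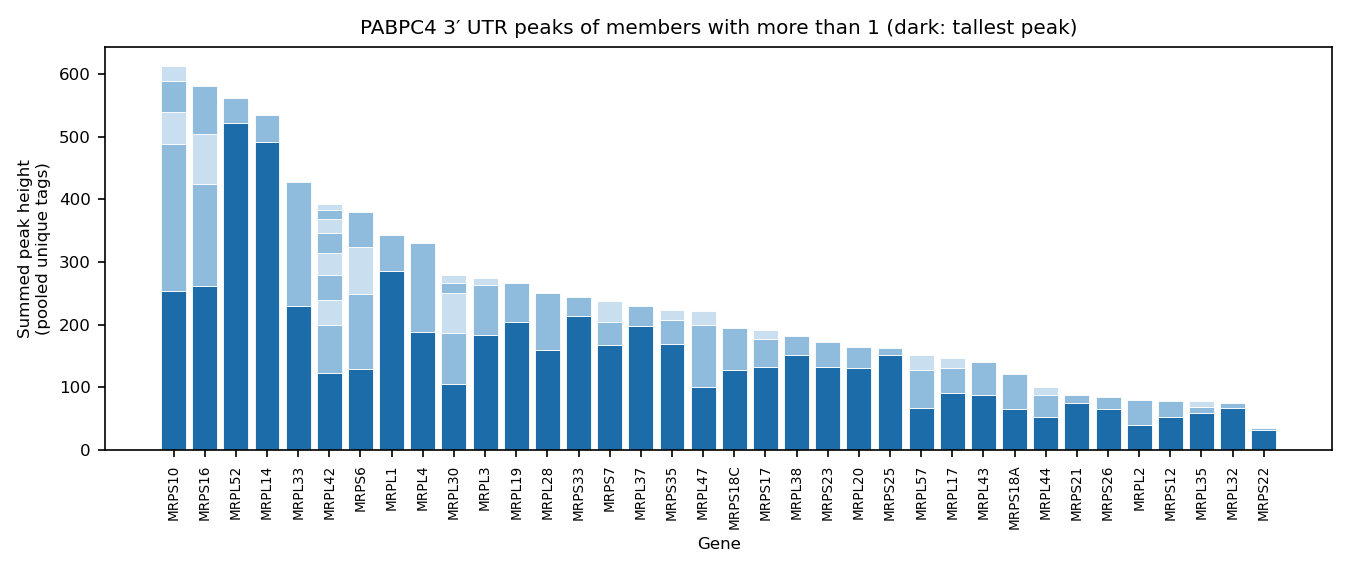
Heights of the PABPC4 3′ UTR peaks (pooled unique tags, stacked) in the 36 genes with more than 1, in order of their sum. The dark block is the tallest peak and paler blocks the others; its share of the sum runs from 31.3% in MRPL42, which has 9 peaks, to 93.8% in MRPS25, which has 2.

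Outside the 3′ UTR, introns held 60 of the 220 peaks, or 27.3% (21.8 to 33.5%), against 59.7% of the peaks of all protein-coding genes. The 3′ UTR held 61.4% (54.8 to 67.6%) against 31.2%, and coding sequence 20 peaks, or 9.09% (5.96 to 13.6%), against 5.28%. These 20 include peaks of 83 and 34 tags under MRPS6 that lay in the coding sequence of SLC5A3. Non-coding exons held 3 peaks, a 5′ UTR held 1 (that of SLC5A3, within MRPS6) and 1 was intergenic. An A-rich stretch followed 45 of the 60 intron peaks, or 75% (62.8 to 84.2%), close to the 71.3% of all genes. A poly(A) signal was present in 4 of 60, or 6.67% (2.62 to 15.9%), and all 4 were also followed by an A-rich stretch. Intron peaks were low, with a median of 36.5 tags and a highest value of 132 tags, in MRPL19. That peak and the other intron peaks of MRPL19 lay past the RefSeq end of the gene, in introns of longer GENCODE transcripts.

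Intron peaks were found in 24 of 77 genes, or 31.2% (21.9 to 42.2%), against 39.6%. Among genes with a PABPC4 peak, the share was 24 of 74, or 32.4% (22.9 to 43.7%), against 66.9%. MRPL1 and MRPS28 had 8 each, MRPL48 5, and MRPL19 and MRPS6 4. Most of these genes are long. The MRPS6 count includes peaks 53131 and 58057 nt past its annotated end, outside its own transcripts. It leaves out the peaks in SLC5A3 exons, which lie in an intron by MRPS6 transcripts alone. Of the genes with a PABPC4 peak, an intron peak was present in 5 of 40 under 10 kb, in 8 of 22 from 10 to 30 kb and in 11 of 12 of 30 kb or more. These shares were 12.5%, 36.4% and 91.7%, against 18.3%, 53.1% and 88.2% of all genes of those lengths. MRPL1 shows how the kinds of peak combined: beside 8 intron peaks and 2 in coding sequence it had the seventh highest 3′ UTR peak of the 77 genes, 4 nt past its annotated end. The median gene length was 8618 nt, against 24092 nt for all protein-coding genes.

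HNRNPC peaks were few on these genes. They were found in 9 of 77, or 11.7% (6.27 to 20.7%), against 19.0% of all protein-coding genes. Among genes with a PABPC4 peak, the share was 9 of 74, or 12.2% (6.53 to 21.5%), against 31.4%. The gap was not seen at every gene length. Under 10 kb, 4 of 40 genes had an HNRNPC peak, or 10.0% (3.96 to 23.1%), against 9.55%. From 10 to 30 kb it was 2 of 22, or 9.09% (2.53 to 27.8%), against 22.7%, and from 30 kb 3 of 12, or 25% (8.89 to 53.2%), against 42.3%. The background values lay within the intervals of the members in each class.

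**Figure D4:**
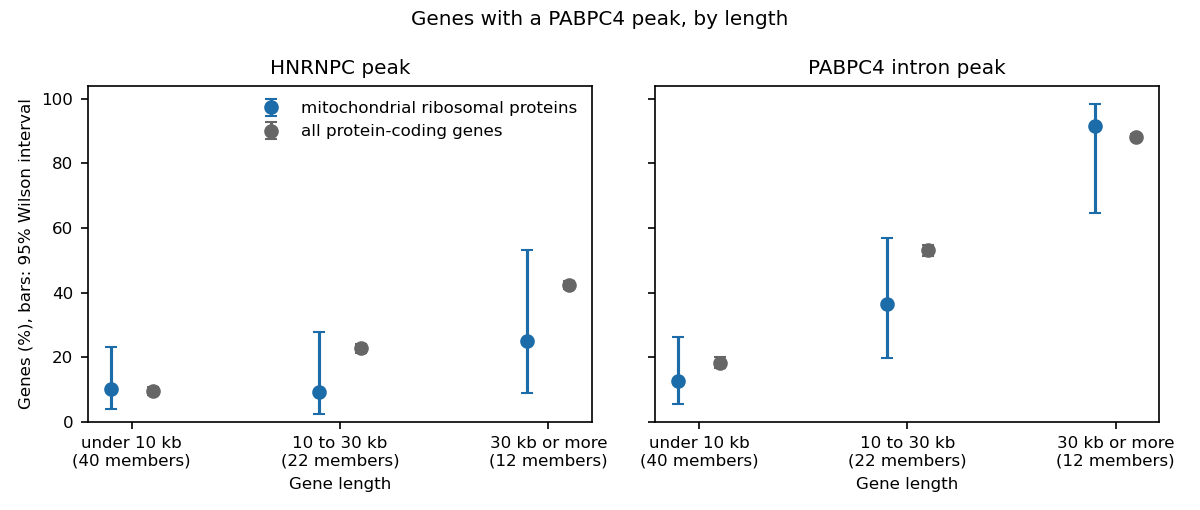
Share of genes with an HNRNPC peak (left) and with a PABPC4 intron peak (right) among genes that have a PABPC4 peak, by gene length, for the mitochondrial ribosomal protein genes and for all protein-coding genes, with 95% Wilson intervals. The intron share rises with length in both sets; for HNRNPC the shares are 10.0% and 9.55% under 10 kb and 25% and 42.3% at 30 kb or more.

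Of the 15 HNRNPC peaks, 13 were in introns, or 86.7% (62.1 to 96.3%), against 86.1% of the HNRNPC peaks of all protein-coding genes. The other 2, or 13.3% (3.74 to 37.9%), were in 3′ UTRs, against 5.23%. They lay in 2 of the 77 genes, or 2.60% (0.715 to 8.98%), against 1.98% of all protein-coding genes. Heights ran from 6 to 33 tags with a median of 10. MRPS6 had 5, of 33, 27, 9, 8 and 8 tags, and all of these positions were also listed under other gene IDs. MRPL10 had 2 (18 and 12 tags), MRPS27 2 (10 and 7), MRPL48 1 (20), MRPS25 1 (13), MRPS18A 1 (12), MRPL33 1 (7), MRPL11 1 (6) and MRPL46 1 (6). The MRPL46 peak, also listed under DET1, lay outside that gene's own transcripts. So did the MRPS6 peak of 8 tags that was 515 nt past the annotated end. MRPL10 encodes the protein that carries the stalk of the large subunit, and MRPS27 a protein of the pentatricopeptide repeat family. The authors' p-value was at most 0.001 for 13 of the 15, or 86.7% (62.1 to 96.3%), against 71.4% of the whole list.

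MRPS25 had the HNRNPC peak in its own 3′ UTR. The gene encodes a small subunit protein specific to mitochondria. The peak, 13 tags (6.92 to 22.2), lay at chr3:15050543-15050676 on the minus strand, 777 nt short of the nearest annotated end. The closest PABPC4 peak, of 152 tags in the same 3′ UTR, was 1562 nt upstream. The other 3′ UTR peak, 27 tags (17.8 to 39.3) under MRPS6, lay in the 3′ UTR of SLC5A3, with the PABPC4 peak of 129 tags 1687 nt downstream. No HNRNPC peak of these genes overlapped a PABPC4 peak. The gap to the nearest on the same strand ran from 427 to 11819 nt.

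Since HNRNPC is known for U runs, the longest run of T within each peak or the 50 nt before it was read from hg38. A run of 5 T lay inside 1 of 15 peaks, or 6.67% (1.19 to 29.8%), against 13.3% of the whole HNRNPC list, and in the 50 nt upstream of 4 of 15, or 26.7% (10.9 to 52.0%), against 30.5%. Capitals in the following lines mark the run, which lies inside the peak in MRPS25 and upstream of it in MRPL48 and MRPS18A. The lines are examples. In the tallest HNRNPC peaks, those of 33 and 27 tags under MRPS6, the longest run was 3 T.
MRPS25 (chr3:15050645-15050674, minus strand, in the 3′ UTR): tctgctatcagcaTTTTggctgggtggaaa
MRPL48 (chr11:73817960-73817989, plus strand, intron): atgcccagctaaTTTTTTattttttaaatt
MRPS18A (chr6:43683453-43683482, minus strand, intron): tggttttgacacgTTTTTgtatgcaccctg
The hexamer GTGTCA, which is frequent at the 3′ ends of the list's peaks, lay between 15 nt before and 10 nt after the 3′ end of 8 of 15, or 53.3% (30.1 to 75.2%), against 36.2% (35.2 to 37.2%) of the list. That window was chosen after the sequences were seen. Capitals mark the hexamer in the lines below, which are shown for the taller of the MRPL10 peaks and for the MRPS18A peak.
MRPL10 (chr17:47831203-47831232, minus strand): gcattatgtctccatcttaatGTGTCAgtc
MRPS18A (chr6:43683324-43683353, minus strand): actaagacaccaccctgatcaGTGTCAgtt
In both lines the hexamer was followed by GT, and it ended 3 bases before the peak's last base. This was not so in all 8. In the lower MRPL10 peak the hexamer was followed by GC, and in MRPL48 it lay farther inside the peak. In MRPS27 and MRPL46 it lay past the peak's last base.

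Many of the positions were listed under several genes, which bears on these counts. This held for 41 of 220 PABPC4 positions, in 11 genes, and for 7 of 15 HNRNPC positions, in 3 genes. MRPS6 had 12 such PABPC4 positions, MRPS28 had 9 (with TPD52) and MRPL30 had 6. The feature by any gene differed from that by the member's own transcripts at 9 PABPC4 and 3 HNRNPC positions. Without the shared positions, the number of genes with an HNRNPC 3′ UTR peak went from 2 to 1, which was MRPS25.

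The genes were then set beside others of the same process. Of 5 mitoribosomal proteins with other symbols, 3 had a PABPC4 3′ UTR peak: CHCHD1 (tallest 271 tags), PTCD3 (212) and DAP3 (122), the last a GTP-binding small subunit protein. AURKAIP1 and GADD45GIP1 had PABPC4 peaks but none centred in a 3′ UTR. Of 14 mitochondrial translation factors, 11 had a 3′ UTR peak, with a median tallest height of 44 tags and the highest, 142, in TUFM, the mitochondrial elongation factor Tu. Of 24 assembly and ribosomal RNA factors, 18 had a 3′ UTR peak, with a median of 61.5 tags and the highest, 310, in NGRN. HNRNPC peaks were found in 1 of the 14 translation factors, LRPPRC, with 4, and in 8 of the 24 assembly factors, among them NSUN4 with 1 in the 3′ UTR. The intervals of these shares were wide, and those of the 3′ UTR share overlapped that of the mitochondrial ribosomal protein genes for the translation factors (52.4 to 92.4%) and barely for the assembly factors (55.1 to 88.0%).

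The cytosolic ribosomal proteins, 93 genes, were the closest comparison by function. Their 3′ UTR share was lower, 66 of 93 or 71.0% (61.1 to 79.2%). A PABPC4 peak in any feature was present in 83 of 93, or 89.2% (81.3 to 94.1%), against 96.1%. Coding sequence held 24.9% of their peaks against 9.09%, and their 3′ UTRs had a median of 180 nt against 464 nt. Peaks were assigned by their centre, which in MRPS15 fell in coding sequence, and the part this plays in the lower share was not tested. Their tallest 3′ UTR peaks were far taller, with a median of 1063 tags (quartiles 182 and 2244) against 129. The tallest peak was at an annotated end in 60 of 66, or 90.9% (81.6 to 95.8%), against 79.5% in the mitochondrial ribosomal protein genes. HNRNPC peaks were found in 26 of 93, or 28.0% (19.9 to 37.8%), against 11.7% (6.27 to 20.7%), intervals that overlap slightly. Many cytosolic ribosomal protein genes have pseudogene copies, so their counts are the less certain. Genes are not replicates, and no difference between these groups was tested.

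**Figure D5:**
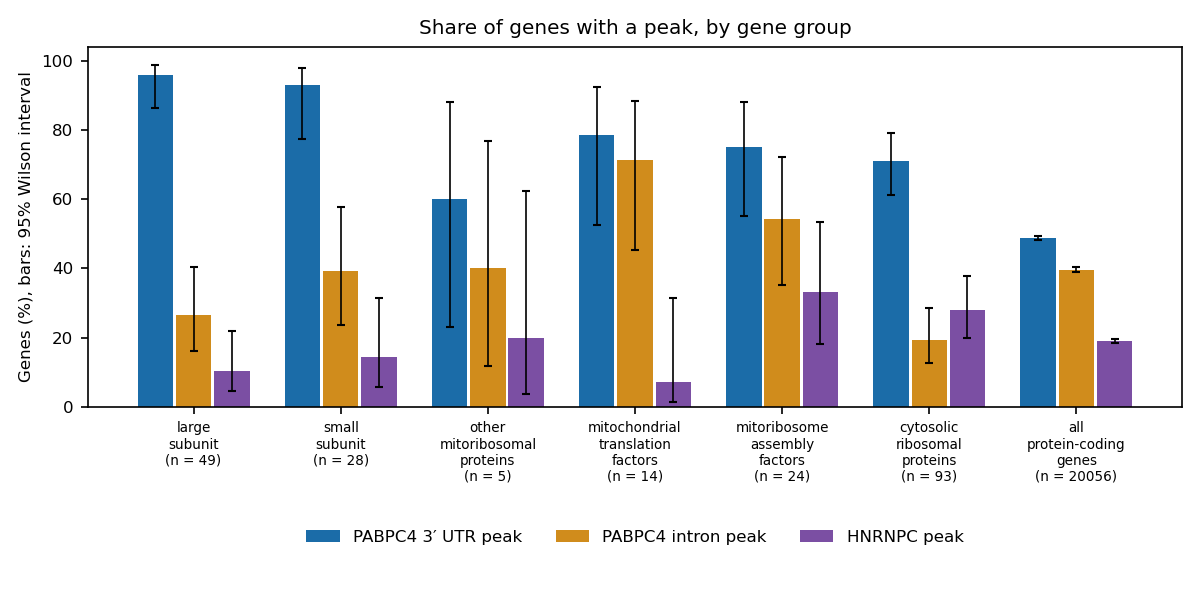
Share of genes with a PABPC4 3′ UTR peak, a PABPC4 intron peak and an HNRNPC peak in large and small subunit genes, other mitochondrial translation genes, cytosolic ribosomal protein genes and all protein-coding genes, with 95% Wilson intervals that cover counting error only. The 3′ UTR share is 95.9% and 92.9% in large and small subunit genes and 48.8% over all genes.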

How the data were processed

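Peak lists were made for 4 samples of MDA-MB-231 cells, 2 for each protein, and the authors pooled the samples of a protein before calling peaks. According to the study's methods and the labels, HNRNPC reads were collapsed by molecular identifiers, trimmed with UMI-tools and cutadapt, aligned to hg38 with BWA 0.7.17 and called with the CLIP Tool Kit's valley-seeking algorithm. The steps for PABPC4 were not given separately in the sources used here. The signal deposited by the authors for each peak is its height, the pooled unique tags at the summit, not scaled to depth. The gene ID, the height expected by chance and the p-value stand beside it as other text. Library totals were not analysed here. The median height was 38 tags for PABPC4 and 11 for HNRNPC. Of the heights summed over all peaks of a list, the genes described held 18786 of 4019739 and 196 of 147196. An HNRNPC height of 11 tags has a wide counting interval, and low PABPC4 targets may fall short of a call.

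Gene IDs were named through the RefSeq table, and all 77 genes matched GENCODE 44. Each position was counted once, and 0 peaks ran past a chromosome end. A peak's centre was assigned to the first of these that held it on its strand: 3′ UTR, coding sequence, 5′ UTR, non-coding exon, intron, antisense, intergenic. Poly(A) signals (AATAAA or ATTAAA) were searched in the last 40 nt of the peak. Python 3.11.15 with numpy 2.4.6, scipy 1.17.1, pandas 2.3.3 and pysam 0.24.0 was used. Assignment was tested at random positions of the annotation against a direct search, and motif search on simulated sequences. Shares carry 95% Wilson and heights exact Poisson intervals, and no test was made. The members, lists and rules were chosen with earlier results of these data known. The genes named are those with the tallest or most 3′ UTR peaks, the most intron or HNRNPC peaks, the tallest peak farthest from an annotated end or followed by an A-rich stretch, and no PABPC4 peak. Others, such as MRPS15 and MRPS31, were named after their values were seen. Alternatives were a stricter p-value, taller peaks, other gene matching and feature rules, and other windows. The removal of positions shared with other gene IDs was chosen after seeing the data. The sequences of some peaks are not reported here.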

Additional observations from a re-analysis of the deposited data

Results flagged for a closer look

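Peaks were also listed under 4 gene IDs that carry a mitochondrial ribosomal protein name but are not protein-coding, and which entered no count above. MRPL45P2, a pseudogene related to MRPL45, had 7 PABPC4 peaks of 16 to 101 tags, of which 6 were in introns and 4 were followed by an A-rich stretch. MRPL20-AS1, an antisense RNA, had 1 PABPC4 peak of 118 tags in a non-coding exon. MRPL42P5, a pseudogene, had 1 PABPC4 peak of 9 tags, and MRPS9-AS2, an antisense RNA, had 1 of 4 tags, each followed by an A-rich stretch. None of the 4 had an HNRNPC peak.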

How the results depend on the processing

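No paired analysis was possible because each list pools its samples, and for the same reason no sample could be left out. Of 70 recomputed values, 58 stayed within the counting interval of the value reported (or within 1.5 times, for a count of genes), and 12 moved. Some of the 58 could not have moved. Counting every listed entry used the same peaks, because none of these genes' positions was listed more than once under the members. The rules for features do not enter the number of genes with any peak. With peaks at or above the median height of their list, 5 genes had an HNRNPC peak, 23 had 2 or more PABPC4 3′ UTR peaks, and PABPC4 peaks were 68.1% in 3′ UTRs and 20.6% in introns. An HNRNPC 3′ UTR peak was left in 1 gene when 1 entry was kept per position, in 1 by the member's own transcripts and in 1 without positions shared with other gene IDs. The share of 3′ UTR peaks at an annotated end was 66.7% within 100 nt. The share with a poly(A) signal was 45.9% for AATAAA alone and 74.1% for either hexamer within 100 nt of the peak. The share of intron peaks with an A-rich stretch was 60% when 8 A in 10 nt were asked and 53.3% within 20 nt. The depth limits what can be said of genes with low peaks, and 1 cell line and pooled samples limit the rest.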

Other observations

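In 9 of the 74 genes with a PABPC4 peak, the tallest one was centred outside the 3′ UTR. It lay in coding sequence in MRPL24 (170 tags, against 164 in the 3′ UTR), MRPL47 (131 against 101), MRPS15 and MRPS31. An intron held it in MRPL48 (80 against 21), MRPS9 (115 against 35) and MRPS28 (115 against 89), and a non-coding exon in MRPS11 (28 against 10). For MRPL46 (27 against 8) it lay in an intron only by another gene's transcripts. That peak was outside MRPL46's own transcripts, 36911 nt upstream of its nearest annotated end, and was also listed under DET1. An A-rich stretch followed 5 of the 9. The gap was widest in MRPS31, a small subunit protein specific to mitochondria, among the 8 with a 3′ UTR peak. Its peak of 183 tags was centred in coding sequence 2119 nt past the nearest annotated 3′ end of a transcript of the gene and was followed by an A-rich stretch, while its 3′ UTR peak, 8 nt before the annotated end with AATAAA, had 14 tags. Over all 77 genes, 10 of the 20 PABPC4 peaks centred in coding sequence were followed by an A-rich stretch, and 2 ended within 50 nt of an annotated 3′ end. The 20 include the peaks under MRPS6 in the coding sequence of SLC5A3. The peaks with a poly(A) signal and no A-rich stretch, 60 of the 135 in 3′ UTRs, had a median height of 95 tags. The 14 with both had 84.5, the 20 with an A-rich stretch alone 53.5, and the 41 with neither 41.0.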
